A study of Mus musculus with 18 samples.

Results

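The regions described here were open in skeletal muscle cells at every stage and genotype measured. By the fold enrichment as deposited, their peaks were at least 2 times as strong in myocytes as in myoblasts. There were 67 such regions among 139354 on chromosomes 1 to 19, obtained by joining overlapping ATAC-seq peaks of 4 deposited lists. A region was kept if it was under 2000 bp wide and held a peak of every list, which left 63011 shared regions. It became a member if the lower of its 2 myocyte values was at least 2 times the higher of its 2 myoblast values. The value was the fold enrichment at the strongest peak, that is, the number of reads over the summit relative to the local background, as given by the authors' peak caller. The members were thus chosen by the myocyte to myoblast ratio, and all ratios between the stages below describe that choice and were not tested. They also depend on the scale of the lists. With each list divided by its median fold, 6 of the 67 kept a ratio of 2.

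ATAC-seq uses a transposase that inserts sequencing adapters into accessible DNA. Peaks mark promoters, enhancers and other sites where nucleosomes are displaced, commonly by bound transcription factors. Myoblasts are the dividing precursors of skeletal muscle fibres. When they leave the cell cycle and become myocytes, muscle regulatory factors such as MyoD, myogenin and the MEF2 proteins act at enhancers of muscle genes. Some of these sites open only then, and others are already accessible in myoblasts. The regions described here had a peak at both stages, and whether they are enhancers or lie near muscle genes was not examined.

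The 12 ATAC-seq samples were 3 each of wild-type myoblasts, MyoD-null myoblasts, wild-type myocytes and MyoD-null myocytes from mouse skeletal muscle, the myocytes after 24 h of myogenic differentiation. The 3 samples of a group were pooled into 1 list by the authors, so no value here has an error between replicates and no test between groups was possible. Another 6 samples of the series, RNA-seq of C2C12 muscle cells with and without CTCF knockdown, were not analysed here. The labels used here name no age, strain or allele behind the loss of MyoD. The tissue label could not be checked against marker genes, because no gene positions or sequence of mm9, the build of the files, were used here, and for the same reason no genes are assigned to the regions and no sequences are shown.

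In both myocyte lists the genotype inside the peak names was opposite to that of the label. Exchanging them does not alter the members, since the rule treats both myocyte lists alike, but each statement on 1 myocyte list below holds only for the list under that label. The peak names of both myocyte lists also begin with a code that those of the myoblast lists do not have, so stage and any difference in handling cannot be told apart.

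Of the 63011 shared regions, 67 reached the ratio of 2, or 0.106%, and none reached it in the opposite direction, with the lower myoblast fold at least 2 times the higher myocyte fold (0%). At a ratio of 1.5 there were 1804 regions (2.86%) stronger in both myocyte lists and 10 (0.0159%) stronger in both myoblast lists. The folds were higher in myocytes at shared regions in general. Their median was 4.36 in wild-type myoblasts, 4.40 in MyoD-null myoblasts, 5.82 in the myocytes labelled wild type and 5.04 in those labelled MyoD-null. After each list was divided by its median, 6 regions reached the ratio of 2 and 2 reached it in the opposite direction. All 6 were among the 67. The 67 members had scaled ratios from 1.52 to 2.27 with a median of 1.74, while the median of all shared regions was 0.849.

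**Figure D1:**
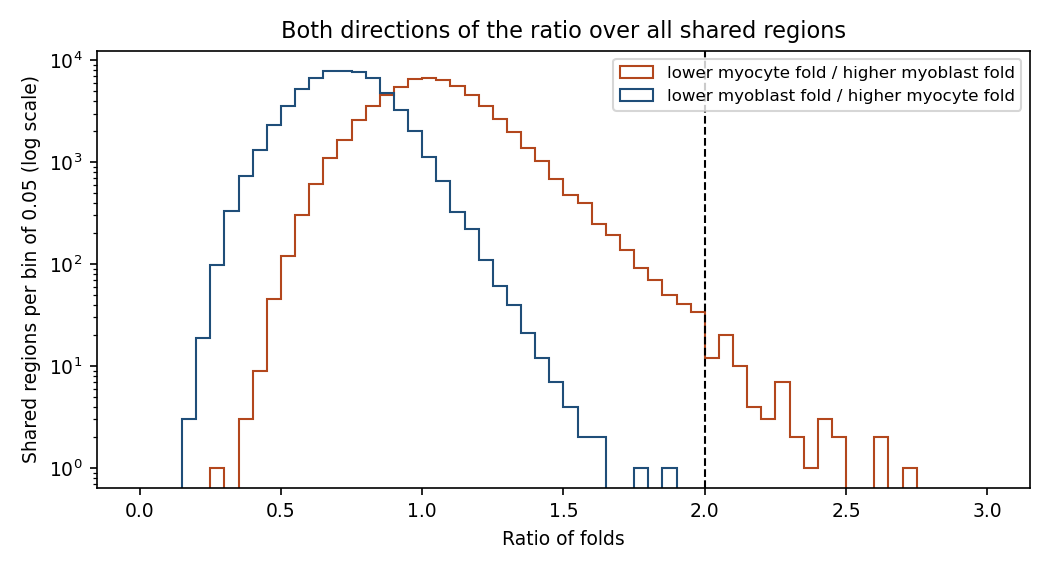
Number of shared regions (log scale) by the ratio of the lower myocyte fold to the higher myoblast fold, and by the opposite ratio. The 67 members lie to the right of the dashed line at 2, between 2.01 and 2.74, and no region of the opposite direction reaches it.

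The highest ratio, 2.74, was at chr8:11128109-11128996. Its folds were 3.60 in wild-type and 3.18 in the MyoD-null myoblasts, 10.5 in the myocytes labelled wild type and 9.85 in those labelled MyoD-null. The summits were covered by 34 and 35 reads in the myoblast lists and by 92 and 78 in the myocyte lists. Both myocyte values stood far above both myoblast values, and the values within each stage were close.

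The region at chr6:8121938-8122623 followed with a ratio of 2.65. Its folds were 3.27 and 3.35 in the wild-type and the MyoD-null myoblasts, and 8.88 and 9.45 in the myocytes labelled wild type and MyoD-null. Here the list labelled MyoD-null was the higher of the myocyte lists. At chr1:16616007-16616562 (ratio 2.62) the myoblast folds were 3.38 in wild-type and 2.93 in MyoD-null cells, against 15.4 and 8.86 in the myocytes labelled wild type and MyoD-null. The value of 15.4 was the highest fold of any member in any list and lay at the 99.97th percentile of its list, while the wild-type myoblast value lay at the 21.4th percentile. The 3 regions with the highest ratios were the only members at 2.5 or above.

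At chr14:63995934-63996647 (ratio 2.49) the folds were lower throughout. They were 2.78 and 2.93 in the wild-type and the MyoD-null myoblasts and 7.31 and 7.53 in the myocytes labelled wild type and MyoD-null. This region lay in denser signal than most members. Its 41 and 48 reads in the wild-type and MyoD-null myoblast lists stood over local backgrounds of 14.1 and 15.7. The region at chr12:80975233-80975734 (ratio 2.46) had nearly equal folds within each stage, 3.49 and 3.46 in the wild-type and the MyoD-null myoblasts and 8.59 and 8.86 in the 2 myocyte lists. At chr18:78901845-78902726 (ratio 2.43) they were 3.38 and 3.98, and 10.00 and 9.68, in the same order. Its summits lay up to 316 bp apart between lists, so the strongest peaks of the 4 lists were not centred on the same place.

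The next 2 regions had a higher fold in the myocytes labelled wild type. At chr19:23462351-23463397 (ratio 2.41) the folds were 3.05 in wild-type myoblasts, 3.56 in MyoD-null myoblasts, 10.7 in the myocytes labelled wild type and 8.59 in those labelled MyoD-null. At chr7:72051706-72052409 (2.41) they were 2.94, 2.93, 10.2 and 7.09 in the same order. Reads at that summit numbered 26 and 27 in the myoblast lists, and 81 and 51 in the myocyte lists. A second region of the same chromosome, chr7:99974573-99975304 (2.37), had folds of 3.05, 2.62, 9.10 and 7.23. The MyoD-null myoblast peak there was among the weakest of the members, with 24 reads and a −log10 q of 3.62. The tenth region, chr6:139718261-139719304 (2.33), had folds of 3.81, 3.25, 9.30 and 8.90, and both stages were again well apart.

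**Figure D2:**
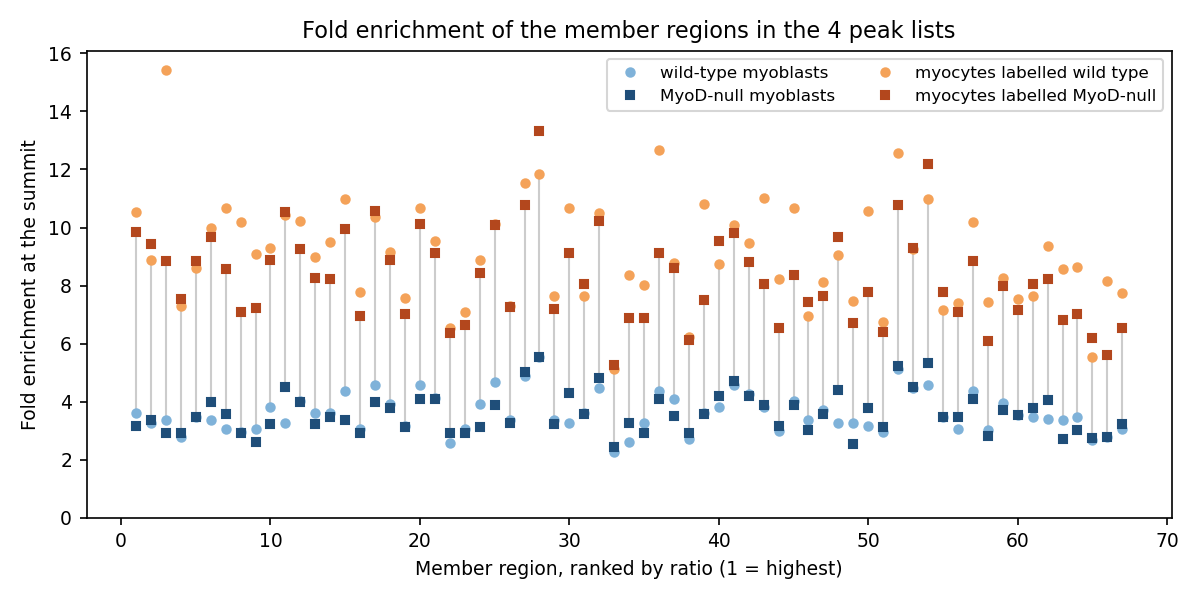
Fold enrichment at the summit of the 67 members in each of the 4 peak lists, ranked by ratio from left to right, with a grey line from the higher myoblast to the lower myocyte value. Myoblast values range from 2.28 to 5.56 and myocyte values from 5.12 to 15.4, and the rule keeps them apart at every region.

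The 5 members with the highest lower myocyte fold were not among the 10 with the highest ratios. The highest lower myocyte fold, 11.9, was at chr12:39570178-39570950, with 11.9 and 13.3 in the myocytes labelled wild type and MyoD-null and 5.56 and 5.55 in the wild-type and the MyoD-null myoblasts. Those were also the highest myoblast folds of any member in each myoblast list. At chr19:18840801-18841492 the folds were 4.58 and 5.34 in the myoblasts and 11.0 and 12.2 in the myocytes. At these 2 regions the list labelled MyoD-null was the higher myocyte list.

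At chr1:165621795-165622480 the myoblast folds were 4.90 (wild type) and 5.03 (MyoD-null), and the myocyte folds 11.5 (labelled wild type) and 10.8 (labelled MyoD-null). At chr3:68473339-68474007 they were 5.12, 5.24, 12.6 and 10.8 in that order. At chr5:21485569-21486383 they were 3.27, 4.51, 10.4 and 10.5. The last of these differed most between the myoblast genotypes, with a wild-type to MyoD-null ratio of 0.725, the lowest of the members.

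Across all 67 members, the fold in wild-type myoblasts ran from 2.28 to 5.56 with a median of 3.49, and in MyoD-null myoblasts from 2.43 to 5.55 with a median of 3.46. In the myocytes labelled wild type it ran from 5.12 to 15.4 (median 8.99), and in those labelled MyoD-null from 5.26 to 13.3 (median 8.22). Ranked among the 63011 shared regions of the same list, the median member stood at the 24.7th and 23.6th percentile in the wild-type and the MyoD-null myoblasts. It stood at the 87.0th and 89.3rd percentile in the myocytes labelled wild type and MyoD-null. By these ranks the members mostly stood in the weaker part of the myoblast lists and in the stronger part of the myocyte lists. Ranks do not depend on the scale of a list. They are, however, ranks of the folds that chose the members, so the rule favours this outcome and it is only a description. For 10 members both myoblast folds were at or under the 25th percentile and both myocyte folds at or above the 75th percentile of their lists. None of the other 62944 shared regions showed this combination, but the rule all but fixed that outcome. The 25th percentiles were folds of 3.49 and 3.50 in the wild-type and the MyoD-null myoblasts. The 75th percentiles were 7.64 and 6.69 in the myocytes labelled wild type and MyoD-null. The combination by itself therefore requires a ratio close to 2, and the count restates the rule.

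The depth behind these folds was modest. Reads over the summit of the members numbered 23 to 51 in wild-type myoblasts (median 32) and 24 to 62 in MyoD-null myoblasts (median 35). They numbered 36 to 141 (median 67) and 44 to 112 (median 66) in the myocytes labelled wild type and MyoD-null. The genome-wide background was lower in the myocyte lists (5.29 and 6.34 reads, labelled wild type and MyoD-null) than in the myoblast lists (8.18 and 8.54). In 66 of the 67 members the summit had more reads in the list with the lower myocyte fold than in that with the higher myoblast fold. These reads are part of the folds that chose the members, so the rule favours this outcome and the count is only a description. The exception was chr3:103397400-103398424, with 36 reads against a local background of 5.68 in the myocytes labelled wild type and 39 reads over one of 13.5 in MyoD-null myoblasts.

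For each member, a 95% exact conditional interval of the ratio was computed from the reads in the list with the lower myocyte fold and in the list with the higher myoblast fold. It covers counting error only, and reads without molecular identifiers are not independent molecules. The reads are those behind the folds that chose the members at a ratio of 2 or more, so the intervals describe precision and give no support for the ratios. The lower bounds ran from 1.24 to 1.84. For 18 members the lower bound was 1.5 or more, and for none was it 2 or more. The region with the highest ratio, chr8:11128109-11128996, had an interval from 1.84 to 4.29. Conversely, 1735 of the 1737 regions at ratios from 1.5 to 2 had an upper bound of 2 or more. At this depth the members could not be separated from the regions just under the limit.

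**Figure D3:**
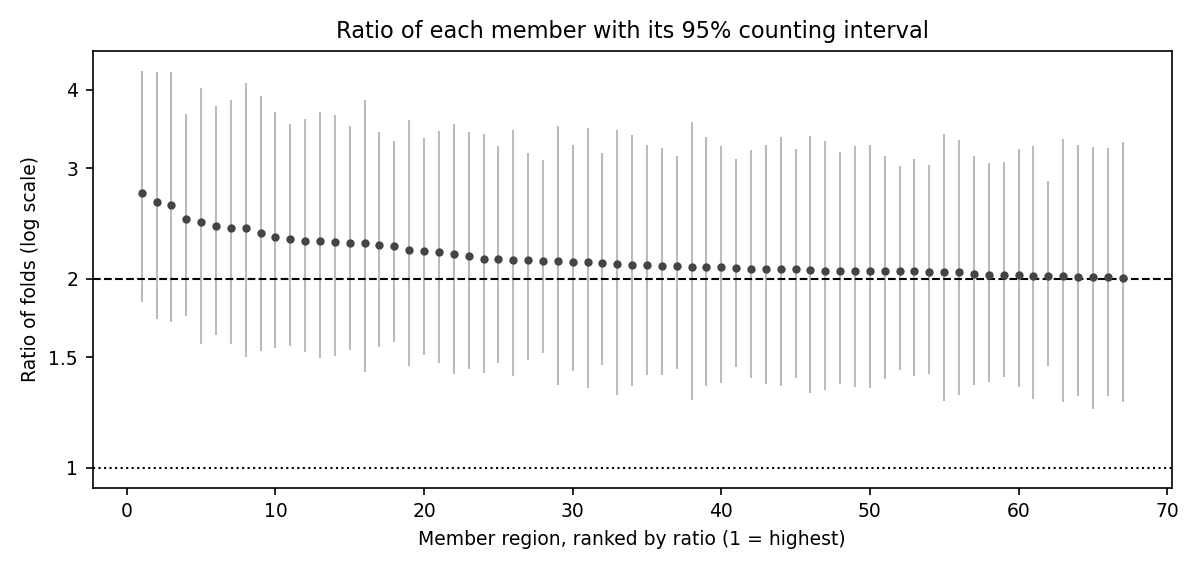
Ratio of the lower myocyte to the higher myoblast fold (log scale) for the 67 members, ranked, with 95% exact conditional intervals from the summit reads, which cover counting error only. The intervals come from the same values that chose the members. Their lower bounds lie between 1.24 and 1.84, above the dotted line at 1, and all include 2 (dashed line).

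The limit of 2 lay in the thin upper tail of the distribution, with 1737 regions at ratios from 1.5 to 2, and 46 of the 67 members had ratios under 2.2. Just inside it were chr10:96299677-96300407 and chr6:145899045-145899664, both with a ratio of 2.01. The former had folds of 3.05, 3.25, 7.75 and 6.53 and the latter of 2.78, 2.80, 8.15 and 5.62 in the wild-type and the MyoD-null myoblasts and in the myocytes labelled wild type and MyoD-null. Just outside it, with ratios of 1.9998 and 1.9993, were chr17:66625946-66626723, with folds of 4.58, 4.43, 10.9 and 9.15, and chr13:83704497-83705721, with folds of 2.94, 3.04, 8.35 and 6.08. The values on both sides of the limit were alike.

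The rule set no limit on the difference between genotypes, but the shares below are not independent of it. It takes the higher of the 2 myoblast values and so favours regions where both are low. In myoblasts the members had a median wild-type to MyoD-null ratio of 1.01, with a range from 0.725 to 1.299, and the median of all shared regions was 0.992. The fold in wild-type myoblasts was at least 1.2 times that in MyoD-null myoblasts at 5 members (7.46%, 95% Wilson interval 3.23 to 16.3) and at 6.95% of all shared regions. The opposite held at 4 members (5.97%, 2.35 to 14.4) and at 8.04% of all shared regions. Both counts were near the background. At a limit of 1.3 the counts were 0 members against 2.28% of all shared regions, and 3 members (4.48%, 1.53 to 12.4), against 2.68%. Both limits were chosen after values were seen.

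In myocytes, 51 of the 67 members (76.1%, 64.7 to 84.7) had the higher fold in the list labelled wild type, as had 69.8% of all shared regions. After each list was divided by its median this turned, and 20 of 67 (29.9%, 20.2 to 41.7) were higher there. The scaling moves all regions of a list alike, and the share over all shared regions fell below 50% with it, to 43.6% (43.2 to 44.0). The deposited folds of the list labelled wild type were at least 1.2 times those of the list labelled MyoD-null at 15 members (22.4%, 14.1 to 33.7), against 36.7% of all shared regions. The opposite was seen at 0 members (upper limit of the interval 5.42%), against 10.7%. At a limit of 1.3 the shares were 10.4% of the members (7 of 67, 5.15 to 20.03) against 25.4%, and again 0 members for the opposite, against 6.51%. The rule takes the lower of the myocyte values and so favours regions where both are high.

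The members with the largest difference in favour of the list labelled wild type were chr1:16616007-16616562, with a ratio between the myocyte lists of 1.74, chr6:145899045-145899664 with 1.45 and chr7:72051706-72052409 with 1.44. In the other direction the differences were small. The list labelled MyoD-null exceeded the other 1.12-fold at chr12:39570178-39570950 and at chr3:103397400-103398424, and 1.11-fold at chr19:18840801-18841492. The folds at chr3:103397400-103398424 were 2.69 and 2.75 in the wild-type and the MyoD-null myoblasts, and 5.54 and 6.18 in the myocytes labelled wild type and MyoD-null. By the labels or by the peak names, the members were strengthened in myocytes of both genotypes, as the rule requires.

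**Figure D4:**
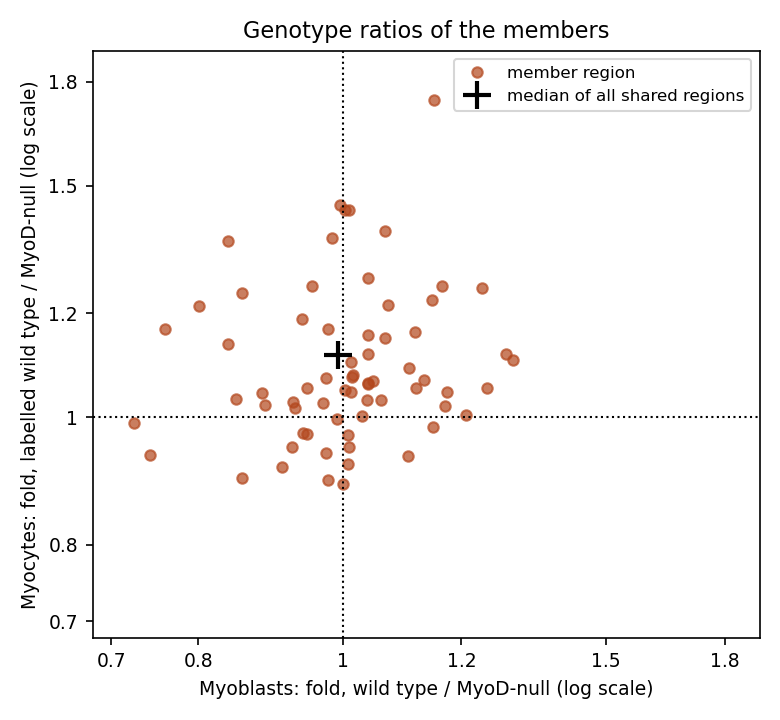
Ratio of folds between the genotypes for the 67 members, in myoblasts (horizontal axis) and in myocytes by their labels (vertical axis), both on log scales, with the median of all shared regions as a cross. Members scatter from 0.725 to 1.299 in myoblasts and from 0.890 to 1.74 in myocytes, and chr1:16616007-16616562 is the highest on the vertical axis.

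The peaks of the members were narrow in myoblasts and wider in myocytes. The strongest peak had a median width of 384 bp in wild-type and 365 bp in the MyoD-null myoblasts, against 525 and 500 bp over all shared regions. In the myocytes labelled wild type and MyoD-null the medians were 731 and 643 bp, against 645 and 571 bp. Both myocyte peaks were wider than both myoblast peaks at 58 members (86.6%, 76.4 to 92.8) and at 37.0% of the other shared regions. Widths at the 2 stages belong to the same contrast as the rule and are given as a description.

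The summits were those of the peaks whose folds chose the members, so their positions are given as a description. The summit lay within 100 bp across all 4 lists at 34 members (50.7%, 39.1 to 62.3) and at 55.5% (55.1 to 55.9) of the other shared regions. Between the 2 myocyte lists the summits of a member were a median of 23 bp apart, against 39 bp over all shared regions. Between the myoblast lists they were 59 bp apart, against 36 bp. The summits of the members also had fewer reads than those of all shared regions in the myoblast lists, with medians of 32 and 35 against 55 and 59, and more in the myocyte lists, with 67 and 66 against 61 and 56. The part of read number in these distances was not tested.

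At 5 members (7.46%, 3.23 to 16.3) a myoblast list held more than 1 peak, as at 6.95% of the other shared regions. A myocyte list did so at 0 members (upper limit of the interval 5.42%) and at 2.95% of the others. Both counts were near the background. The widest member, chr4:147504393-147506043, was covered by 2 peaks in each myoblast list and by 1 in each myocyte list, and its strongest summits lay up to 887 bp apart. Its folds were 2.95, 3.12, 6.75 and 6.41 in the wild-type and the MyoD-null myoblasts and in the myocytes labelled wild type and MyoD-null. At chr6:140673584-140674666 and chr1:53777620-53778662 the wild-type myoblast list had 2 peaks, and the summits spread over 664 and 475 bp. At these 3 regions the myocyte value and the myoblast value came in part from different summits. In all, 7 members (10.4%, 5.15 to 20.03) had summits more than 250 bp apart, close to the 10.5% of other shared regions, and these were no longer members when closer summits were required.

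At most members the local background in myoblasts was as low as it can be. It equalled the genome-wide level, the lowest the peak caller uses, within 0.001 reads at 46 members (68.7%, 56.8 to 78.5) in wild-type myoblasts and 47 (70.1%, 58.3 to 79.8) in MyoD-null myoblasts, and at 19.2% of the other shared regions in each. In the myocytes labelled wild type it did so at 13 members (19.4%, 11.7 to 30.4), close to the 19.2% of other shared regions. In those labelled MyoD-null it was 28 (41.8%, 30.7 to 53.7) against 21.5%. The local background is part of the fold and so not independent of the rule. The distance to the nearest other shared region had a median of 9.21 kb for the members and 6.24 kb over all shared regions. The rule does not use this distance directly, and whether it is tied to the local background was not tested.

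The members were scattered over the genome. Each of the 19 chromosomes held from 2 to 7 of them. Chromosome 6, with 7 of 3448 shared regions (0.203%, 0.0984 to 0.418), and chromosome 10, with 7 of 3385 (0.207%, 0.100 to 0.426), had the highest shares, and chromosome 4, with 2 of 4119 (0.0486%, 0.0133 to 0.177), the lowest. All 19 intervals overlapped one another. The closest pair, chr6:139718261-139719304 and chr6:140673584-140674666, was 0.954 Mb apart. Next came chr19:18840801-18841492 and chr19:20604256-20605185 at 1.76 Mb, and chr10:118183867-118184548 and chr10:120247217-120247875 at 2.06 Mb.

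At chr19:20604256-20605185 the folds were 4.47, 4.51, 9.26 and 9.28 in the wild-type and the MyoD-null myoblasts and in the myocytes labelled wild type and MyoD-null, lower in both myocyte lists than at its neighbour. At chr10:118183867-118184548 they were 2.61, 3.26, 8.36 and 6.88. At chr10:120247217-120247875 they were 3.36, 3.04, 6.94 and 7.42, so that the order of the genotypes was opposite at both stages. No member had another member within 100 kb (0 of 67, upper limit of the interval 5.42%). Of the other shared regions, 0.782% lay within 100 kb of a member.

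Shared regions next to a member had a median ratio close to that of shared regions in general, and how often they had a higher one depended on the limit. The nearest shared region of a member had a median ratio of 1.005, against 1.03 for the nearest shared region of any shared region. It had a ratio above 1 at 34 members (50.7%, 39.1 to 62.3), against 56.8% for the other shared regions. A ratio of at least 1.2 was found next to 14 members (20.9%, 12.9 to 32.1), against 19.8% (19.5 to 20.1). A ratio of at least 1.3 was found next to 12 members (17.9%, 10.6 to 28.7), against 10.4% (10.1 to 10.6). The intervals overlapped at both limits, at 1.3 only at their ends. Next to shared regions with ratios from 1.5 to 2 the share at 1.3 was 14.6% (12.98 to 16.3).

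At 5 members a shared region lay within 2 kb, and these were picked after their values were seen. The closest case was chr9:99032327-99033011, with folds of 3.00 and 3.15 in the wild-type and MyoD-null myoblasts and 8.22 and 6.53 in the myocytes labelled wild type and MyoD-null. The neighbour 178 bp away, chr9:99031542-99032148, had folds of 3.32, 3.62, 3.75 and 3.18, and so a ratio of 0.878. Beside chr11:95046890-95047347, the narrowest member and the one with the lowest folds (2.28, 2.43, 5.12 and 5.26), a region 711 bp away had a ratio of 0.875. Beside chr7:99974573-99975304, a region 1238 bp away had folds of 3.31, 3.88, 3.62 and 2.90.

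The neighbour of chr1:45088253-45088906, at 1300 bp, had a ratio of 0.954. That of chr8:49380782-49381356, at 1132 bp, had a ratio of 1.301 and was the only one of the 5 that was stronger in both myocyte lists. In the other 4 pairs the peak next to the member was not stronger in both myocyte lists. These pairs are examples only. Over all 67 members, the nearest shared region was stronger in both myocyte lists at 50.7%, against 56.8% for the other shared regions.

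Regions listed at 1 stage alone were then located around the members. There were 4713 regions in both myocyte lists and no myoblast list, and 6522 in both myoblast lists and no myocyte list. A region of the first kind lay within 50 kb of 23 members (34.3%, 24.1 to 46.3) and of 32.2% (31.8 to 32.6) of the other shared regions. A region of the second kind lay within 50 kb of 21 members (31.3%, 21.5 to 43.2) and of 32.6% (32.2 to 33.0) of the others. Both shares of the members were near those of the other shared regions. Over the bins of ratio below 2 the shares ran from 29.2% to 33.3% for the first kind and from 31.5% to 34.6% for the second.

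Within 20 kb, the first kind was found at 9 members (13.4%, 7.23 to 23.6) against 16.0%, and the second at 5 (7.46%, 3.23 to 16.3) against 14.4% (14.1 to 14.7). The intervals of the members included the shares of the others in both cases. No difference in this distance was detectable with 67 regions.

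**Figure D5:**
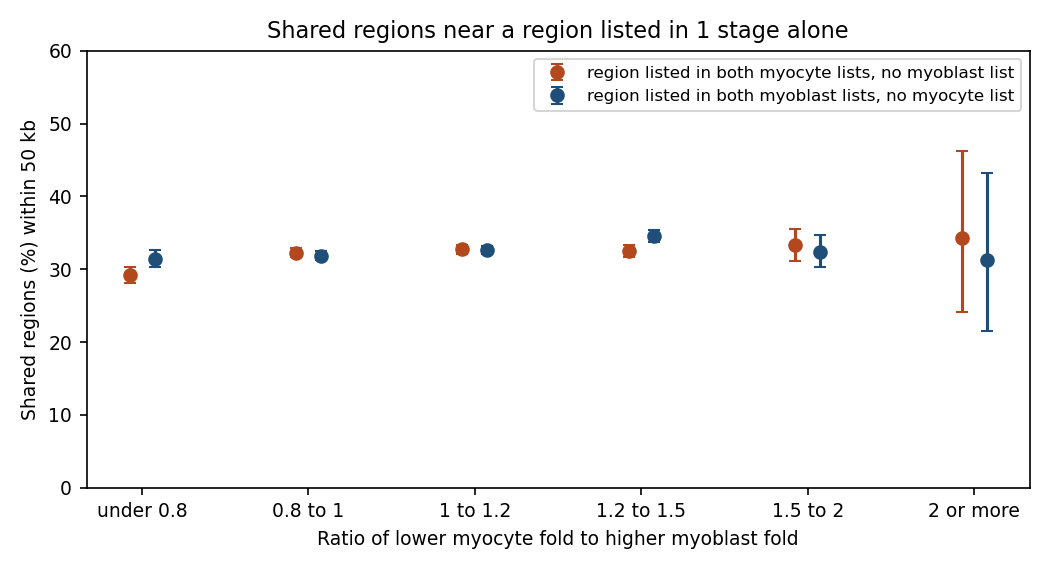
Share of shared regions (percent, with 95% Wilson intervals) that lie within 50 kb of a region listed in both myocyte lists and no myoblast list, or the opposite, by the ratio of the lower myocyte to the higher myoblast fold. The members, at 2 or more, stand at 34.3% and 31.3%, and their intervals include the shares of all other bins.

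The members not yet named had ratios from 2.02 to 2.30. On chromosomes 1 to 4 they were chr1:10560875-10561628 (ratio 2.06), chr2:7440937-7441968 (2.29), chr2:79886814-79887718 (2.21), chr2:152688122-152689680 (2.09), chr3:101252451-101253277 (2.06) and chr4:122536476-122537263 (2.03). On chromosomes 5 to 9 they were chr5:52273406-52274288 (2.02), chr5:67327159-67327827 (2.08), chr6:13994600-13995150 (2.21), chr6:43331969-43332674 (2.07), chr6:99896755-99897329 (2.10), chr8:123753363-123754037 (2.17) and chr9:111314637-111315398 (2.10). The lower myocyte fold was that of the list labelled MyoD-null at 51 of all 67 members (76.1%), and at 69.8% of all shared regions.

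Chromosome 10 held chr10:13007831-13008628 (2.09), chr10:24273782-24274362 (2.09), chr10:78784768-78785436 (2.02) and chr10:91167447-91168050 (2.06). On chromosomes 11 to 14 lay chr11:12185094-12186081 (2.29), chr11:88408036-88408846 (2.10), chr12:28059469-28060476 (2.15), chr12:96972197-96973006 (2.05), chr13:51428358-51429274 (2.22), chr13:55056853-55057925 (2.03), chr13:90373167-90374074 (2.15), chr14:9164765-9165719 (2.19) and chr14:117918522-117919251 (2.27). The region at chr12:28059469-28060476 had the most reads at the summit of any member, 141 in the myocytes labelled wild type, while 73 reads in those labelled MyoD-null gave the same fold of 10.1. At chr11:88408036-88408846 the fold of 12.7 in the myocytes labelled wild type was the second highest of the members in that list, against 9.13 in those labelled MyoD-null.

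Chromosome 15 held chr15:12040660-12041658 (2.26), chr15:40090909-40091753 (2.02), chr15:56455512-56456211 (2.28), chr15:67458226-67458930 (2.03) and chr15:84299635-84300475 (2.02). On chromosomes 16 to 18 lay chr16:8163846-8164879 (2.30), chr16:25440066-25440579 (2.12), chr16:28696789-28697543 (2.08), chr17:8178581-8179065 (2.13), chr17:14784743-14785721 (2.28), chr17:59215384-59216572 (2.07), chr17:67499531-67500262 (2.06) and chr18:10103086-10103554 (2.12). The region at chr15:84299635-84300475 had the most reads of any member in each myoblast list, 51 in wild-type and 62 in MyoD-null cells, and the narrowest interval of its ratio by upper bound, from 1.45 to 2.86.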

How the data were processed

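The 4 deposited lists hold peaks of merged ATAC-seq reads, as the peak names show. Each list is named in the descriptions of the 3 samples of its group. The submitters' processing notes name mm9, MACS2 and deepTools, with no versions. For the aligner, the caller's settings and any transposase shift, nothing is given in the sources used here. The fold enrichment is a deposited ratio of summit reads to local background. Each peak has a deposited −log10 p and a deposited −log10 q, of which the lowest was 2.02. The deposited score was not used.

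Peaks were merged over chromosomes 1 to 19 if they overlapped by 1 bp or more, and the highest fold of each list was taken. Reads at the summit and the local background were recovered as the whole number and the rate that give both the fold, (reads + 1) / (background + 1), and the Poisson −log10 p. Over all 63011 shared regions, 100% of the numbers came out within 0.1 of a whole read and reproduced −log10 p within 0.02. Read totals per sample are unknown. Shares have 95% Wilson intervals. The merging and recovery steps were tested on simulated lists. Tables were handled with pandas 2.3.3 and numpy 2.4.6 in Python 3.11.15, intervals came from scipy 1.17.1 and statsmodels 0.14.6, and plots from matplotlib 3.10.9.

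The rule, the members and the lists of alternatives were chosen with earlier results of these data known. Named regions were the 10 with the highest ratios, the 5 with the highest lower myocyte fold, the 3 with the largest difference between myocyte lists in each direction, the 3 closest pairs and the 2 on each side of the limit. Other regions named with values were chosen after their values were seen, as were the limits of 1.2 and 1.3 on ratios between genotypes and on the nearest shared region, the limit of 2.2 and the bins of ratio. The planned analyses of genes, promoter markers and sequence motifs were not run, as the reference tables used GRCm38 coordinates.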

Additional observations from a re-analysis of the deposited data

How the results depend on the processing

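The count of 67 rested on the limit and the scale. It was 1804 at a ratio of 1.5 and 0 at a ratio of 3, where no genotype count could be made. It was 6 with folds divided by the median of each list and 7 with quantile-normalised folds, all of them among the 67. Without wild-type myoblasts in the rule it was 224, and without MyoD-null myoblasts or without the myocytes labelled wild type it was 193 each. Without the myocytes labelled MyoD-null it was 2049, so that list decided the count more than any other. With the genome-wide in place of the local background, an alternative chosen after the values were seen, it was 415, with 58 of the 67. With those folds divided by their list medians, also added later, 13 regions reached the ratio, 7 of them among the 67, and 33 reached it in the opposite direction. Median scaling also turned the share of members higher in the myocytes labelled wild type from 76.1% to 29.9%, and that of all shared regions from 69.8% to 43.6%. The cause of these shifts was not tested. The count stayed between 55 and 68 with the peak of highest −log10 p, a −log10 q of at least 5, summits within 250 bp, a width limit of 1000 bp or none, lists of equal length (86575 peaks each), or chromosomes X and Y added. Of these settings, the limits on summit distance and on width only choose among regions and leave their folds unchanged, so they do not bear on the folds. The share of members near a region of both myocyte lists alone was 13.4% within 20 kb and 53.7% within 100 kb, against 34.3% within 50 kb. The share of members whose nearest shared region reached a limit, added after values were seen, was near that of the other shared regions at 1.2 (20.9% against 19.8%) and above it at 1.3 (17.9% against 10.4%). No paired analysis was possible because the authors pooled the 3 replicates of each group, and leaving out a replicate was not possible for the same reason. Summits of 23 to 62 reads in myoblasts limit the precision of every ratio.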

Other observations

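Outside the chromosomes of the rule, 1 of 1152 shared regions under 2000 bp on X and Y reached the ratio of 2. It lay at chrX:154185511-154186665, with a ratio of 2.004. Its folds were 4.14 in wild-type myoblasts, 4.09 in MyoD-null myoblasts, 8.69 in the myocytes labelled wild type and 8.29 in those labelled MyoD-null. The values were close within each stage and lay within the range of the members on chromosomes 1 to 19.

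After each list was divided by its median fold, the regions that kept a ratio of 2 were chr1:16616007-16616562 (2.27), chr8:11128109-11128996 (2.19), chr19:23462351-23463397 (2.10), chr7:72051706-72052409 (2.08), chr7:99974573-99975304 (2.05) and chr6:8121938-8122623 (2.004). All 6 were among the 10 with the highest ratios as deposited. At 5 of them the fold as deposited was higher in the myocytes labelled wild type, as it was at 76.1% of the members and 69.8% of all shared regions. That list also had the higher median fold of the myocyte lists (5.82 against 5.04), so the division lowered its folds more.

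With the genome-wide background in the fold, 9 of the 67 members fell below 2, with ratios from 1.40 to 1.99. No region of 2000 bp or wider that was present in all lists, 1002 in number, reached the ratio of 2.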
